A study of Mus musculus with 12 samples.

Results

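The regions described here are stretches of the newborn mouse liver genome that carried a peak of H3K9me3 in Alb-D2KO animals and none in control animals. A base was taken when a peak of both the Alb-D2KO post-natal day 1 (P1) and the Alb-D2KO post-natal day 5 (P5) list covered it and no peak of either control list did. Continuous runs of 300 bp or more on the 19 autosomes were kept, which gave 44266 regions. For scale, the 4 neonatal lists together covered 252378 separate autosomal intervals of 300 bp or more. The mirror set, made by the same rule with the genotypes exchanged, held 38915 regions, and it is the yardstick for the counts below. Because the regions were chosen by peak coverage in the 4 neonatal lists, their P1 and P5 values are a description, whereas the adult lists had no part in the choice.

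The study profiled H3K9me3 by ChIP-seq in whole liver of C57BL/6J mice to ask whether this mark could account for sites of DNA hypermethylation in Alb-D2KO livers. Alb-D2KO mice carried a floxed Dio2 gene and Cre recombinase under the albumin promoter [B6.Cg-Tg(Alb-cre)21Mgn/J], a cross described as inactivating Dio2 in hepatocytes, while whole liver also holds other cells. Controls were Cre mice, so that the control groups shared the transgene. The 12 samples were 6 H3K9me3 and 6 input libraries, with 1 library of each kind for control and Alb-D2KO at P1, P5 and adult. A neonatal sample was a pool of 3 livers, and adult livers were processed singly. The methods describe 2 pooled samples per genotype at P1 and sequencing on 2 days, but not how these entered the lists. There was thus no spread between replicates at any age, no test between genotypes was made, and intervals below cover counting error only. In whole liver chromatin, a mark in more of the cells and more of the mark per cell cannot be told apart.

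Dio2 encodes the type 2 deiodinase (D2), the enzyme that makes the active thyroid hormone T3 inside cells, and the liver expresses it for a short time around birth. H3K9me3, histone H3 with a triply methylated lysine 9, is laid down by enzymes such as SUV39H1 and SETDB1 and is read by HP1 proteins. It marks compacted chromatin, repeated sequences and silent gene clusters. Peaks took up 19.2% (Alb-D2KO) against 18.7% (control) of the autosomal bases at P1, 20.2% against 19.8% at P5 and 15.5% against 16.1% in adult liver. Most peaks were weak. The median −log10 p per list, averaged by the peak caller over the peak, lay between 1.46 and 1.60.

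The sequences of 6 regions are shown as examples, chosen for extreme values and not as typical of the set. The first 4 had the highest smaller value of the P1 and P5 −log10 p among regions whose source peaks overlapped no control peak. The last 2 were the longest region of all and the region with the highest such p in the Skint block of chromosome 4. Each line gives the central 300 bases of the region on the plus strand of GRCm38 (mm10), with bases outside the repeats masked in the reference in capitals and masked repeats in lower case.
chr6:144840206-144840505: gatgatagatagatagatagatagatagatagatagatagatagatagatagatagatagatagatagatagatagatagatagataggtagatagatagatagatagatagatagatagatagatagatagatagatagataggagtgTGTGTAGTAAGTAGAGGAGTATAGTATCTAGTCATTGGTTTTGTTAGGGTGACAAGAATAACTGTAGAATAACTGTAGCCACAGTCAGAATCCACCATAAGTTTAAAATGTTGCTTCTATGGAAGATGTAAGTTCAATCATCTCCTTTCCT
chr17:14099323-14099622: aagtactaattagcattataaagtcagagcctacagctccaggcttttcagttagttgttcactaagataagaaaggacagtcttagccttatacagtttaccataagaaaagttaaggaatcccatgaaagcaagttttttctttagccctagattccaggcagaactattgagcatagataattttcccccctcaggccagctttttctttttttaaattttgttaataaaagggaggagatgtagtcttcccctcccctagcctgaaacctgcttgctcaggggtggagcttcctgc
chr3:156600185-156600484: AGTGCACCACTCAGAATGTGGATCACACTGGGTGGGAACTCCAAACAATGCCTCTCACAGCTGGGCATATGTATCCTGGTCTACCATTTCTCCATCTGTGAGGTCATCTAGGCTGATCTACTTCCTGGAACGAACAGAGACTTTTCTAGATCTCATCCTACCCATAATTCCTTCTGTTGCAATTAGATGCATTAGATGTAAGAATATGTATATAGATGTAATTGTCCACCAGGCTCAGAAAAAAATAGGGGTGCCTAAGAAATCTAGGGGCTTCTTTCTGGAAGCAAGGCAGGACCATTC
chr9:92713550-92713849: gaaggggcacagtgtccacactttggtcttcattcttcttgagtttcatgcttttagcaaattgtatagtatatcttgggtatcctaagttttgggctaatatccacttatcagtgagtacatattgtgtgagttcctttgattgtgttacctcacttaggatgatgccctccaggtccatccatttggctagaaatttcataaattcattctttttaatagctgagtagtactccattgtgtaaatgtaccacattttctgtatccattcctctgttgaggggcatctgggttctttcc
chr4:112122260-112122559: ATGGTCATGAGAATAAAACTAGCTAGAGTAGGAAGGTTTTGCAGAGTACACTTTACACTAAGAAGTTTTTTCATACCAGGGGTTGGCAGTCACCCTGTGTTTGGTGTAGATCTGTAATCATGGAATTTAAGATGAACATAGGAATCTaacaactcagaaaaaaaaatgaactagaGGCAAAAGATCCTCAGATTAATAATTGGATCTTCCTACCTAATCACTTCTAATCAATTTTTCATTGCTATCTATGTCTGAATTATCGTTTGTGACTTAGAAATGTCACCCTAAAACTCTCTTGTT
chr4:112199711-112200010: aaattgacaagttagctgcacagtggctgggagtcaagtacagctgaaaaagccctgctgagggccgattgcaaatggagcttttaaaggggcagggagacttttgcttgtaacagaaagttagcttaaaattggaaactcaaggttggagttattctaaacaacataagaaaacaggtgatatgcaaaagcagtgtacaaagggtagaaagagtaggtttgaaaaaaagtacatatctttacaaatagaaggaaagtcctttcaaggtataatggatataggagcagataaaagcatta

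The chromosome 6 stretch opens with a long tandem repeat, with 34 copies of gata in 300 bases, before it turns into sequence outside masked repeats. The stretches on chromosomes 17 and 9 and the second one on chromosome 4 lay entirely in masked repeats. All 300 bases of the chromosome 3 stretch, in an intron of Negr1, which encodes a neuronal adhesion molecule, were outside masked repeats. It was also the single stretch of the 6 with an AGGTCA half-site, the hexamer that thyroid hormone receptors and other nuclear receptors bind. The 6 stretches held between 0 and 1 CpG each.

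Regions in the Alb-D2KO set were somewhat more numerous than in the mirror set. They covered 28.5 Mb, or 1.16% of the autosomal bases, and the mirror regions 24.6 Mb, or 0.998%. The ratio of the numbers was 1.14 (95% exact binomial interval 1.12 to 1.15). Lengths were alike, with a median of 572 bp against 561 bp and upper quartiles of 798 bp and 786 bp. At 1000 bp or more there were 4851 Alb-D2KO-only and 3830 control-only regions, and at 2000 bp or more 151 and 103, a ratio of 1.47. Without the Skint block described below these were 4738 and 3830 and 126 and 103, so that much of the wider excess among the longest regions lay in that block. The longest region measured 4760 bp and the longest of the mirror set 4028 bp. Both sets were sharply cut by the length limit, since 87481 runs of any length fitted the Alb-D2KO rule and 79172 the mirror rule. Just outside the limit, 1198 runs fell short of it by at most 10 bp, and their source peaks had a median −log10 p of 1.51 at both ages. Just inside, 1160 regions exceeded it by less than 10 bp, with medians of 1.53 at P1 and 1.51 at P5.

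Age in place of genotype gave a further yardstick. Regions covered in both genotypes at P1 and in neither at P5 numbered 37938, and regions covered in both at P5 and in neither at P1 numbered 49369. The Alb-D2KO-only number lay between these.

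The excess over the mirror set was spread over the autosomes. The number of Alb-D2KO-only regions was above that of control-only regions on 19 of 19 autosomes, with ratios from 1.04 on chromosome 12 to 1.32 on chromosome 4 and a median of 1.12. Density differed more between chromosomes than between sets. Chromosome 3 had the most, with 24.1 Alb-D2KO-only and 19.94 control-only regions per Mb, and chromosome 19 the fewest, with 10.03 and 8.81 per Mb. Chromosome 4 stood out by genotype, with 22.3 and 16.9 per Mb. Without the Skint block its ratio was 1.21, close to that of chromosome 3.

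**Figure D1:**
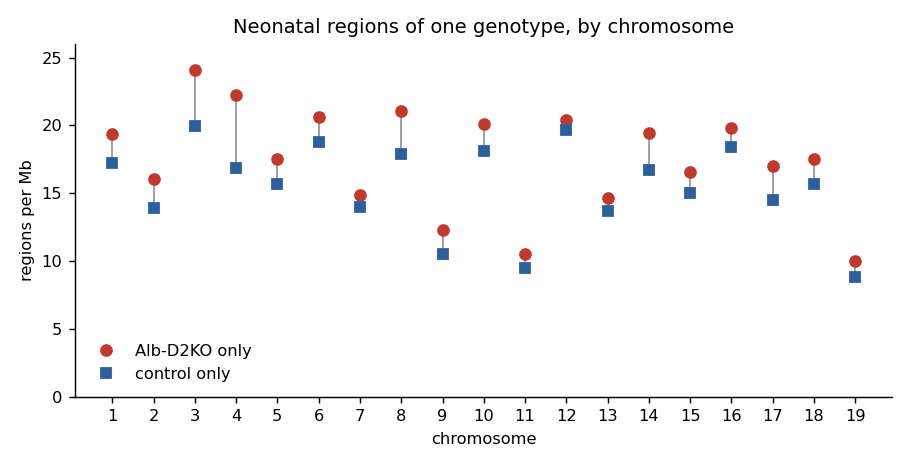
Regions per Mb (vertical axis) on each autosome (horizontal axis) for Alb-D2KO-only regions (red circles) and control-only regions (blue squares), joined by grey lines. The red circle is above the blue square on 19 of 19 autosomes, and the gap is widest on chromosome 4, at 22.3 against 16.9 regions per Mb.

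Most regions were pieces of wider peaks that the genotypes shared. A region was called stand-alone when the Alb-D2KO peak that held it overlapped no control peak at P1 and none at P5. This was so for 5425 regions (12.3%, 11.95 to 12.6) and for 5033 of the mirror set (12.9%, 12.6 to 13.3). For 27182 regions (61.4%) the source peaks at both ages overlapped a control peak next to the region. The source peaks were 2353 bp wide at P1 and 2627 bp at P5 in the median, so that a region made up 26.1% and 23.1% of its source peak. The 44266 regions came from 40344 P1 peaks and 39951 P5 peaks, and 91.4% of these P1 peaks held a single region. Regions that share a source peak are not independent of each other.

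Source peaks were about as weak as the lists in general. The median −log10 p of the source peak was 1.57 at P1 and 1.55 at P5, with listed fold enrichments over input of 1.84 and 1.83. Stand-alone regions came from weaker and narrower peaks, with medians of 1.39 and 1.37 and widths of 875 bp and 933 bp. Both source peaks passed a −log10 p of 2 for 331 regions and for 312 of the mirror set. A q-value below 0.05 was listed for the P1 source peak of 54 regions and the P5 source peak of 55.

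Among stand-alone regions the chromosome 6 region (144840184 to 144840528, 345 bp) was far stronger than the rest. Its source peak had a −log10 p of 11.8 at P1 and 3.95 at P5, listed folds of 3.79 and 2.48 and mean pileups of 26.2 and 11.4. It was intergenic, 36552 bp from Gm22792, and no adult list had a peak there. Of its 50-base words, 3 of 6 occurred elsewhere in the genome, and 49.6% of it was masked repeat.

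The other named stand-alone regions had −log10 p values between 1.97 and 2.95. On chromosome 17 (14099197 to 14099749), 5175 bp from 4930488N24Rik, the values were 2.62 at P1 and 2.87 at P5, and 534 of its 553 bases were covered in the adult Alb-D2KO list and 0 in the adult control list. In the intron of Negr1 (chromosome 3, 156600175 to 156600494) they were 2.21 and 2.22, and no adult peak was listed. On chromosome 9 (92713432 to 92713968), 3488 bp from 4933400C23Rik, they were 2.33 and 2.15. All 537 of its bases were covered in the adult Alb-D2KO list and 0 in the adult control list. The region 504 bp from Tdpoz1 on chromosome 3 (93668342 to 93668829) had 2.03 and 1.98, with 0 adult bases in Alb-D2KO and 222 in control. Repeated sequence varied among these regions, from 7 of 7 words with a copy elsewhere in the region near Olfr1406 on chromosome 1 (173176119 to 173176509) to 0 of 6 in Negr1. Adult coverage of the 10 named stand-alone regions went in every direction. In the adult, 3 were covered in Alb-D2KO alone, 2 in control alone, 1 in both lists and 4 in neither.

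Adult livers were then compared at the same positions. These libraries came from other animals and were not used by the rule. Of the 44266 regions, 8200 (18.5%, 18.2 to 18.9) touched an adult peak in Alb-D2KO alone, 8874 (20.05%, 19.7 to 20.4) in control alone, 13366 (30.2%) in both lists and 13826 (31.2%) in neither. Over all 4188301 autosomal windows of 572 bp, the shares were 9.14% in Alb-D2KO alone, 9.82% in control alone, 13.3% in both and 67.8% in neither. Among the windows that touched any neonatal peak they were 16.8%, 18.1%, 29.5% and 35.7%, near those of the regions. The mirror set gave 18.3%, 19.99%, 30.4% and 31.3%.

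The adult state was alike in the sets of both genotypes, with overlapping intervals. Of the regions with a peak in a single adult list, Alb-D2KO held 48.03% (47.3 to 48.8) in the Alb-D2KO-only set and 47.8% (47.03 to 48.6) in the control-only set. It held 47.9% for the regions particular to P1 and 47.1% for those particular to P5. By bases, adult peaks covered 33.6% of the Alb-D2KO-only regions in Alb-D2KO and 34.8% in control. For the mirror set the same values were 34.2% and 35.5%. Among stand-alone regions, 45.5% (44.2 to 46.9) had no adult peak, and among those of the mirror set 44.3% (42.95 to 45.7). Alb-D2KO held 46.96% of those with a peak in a single adult list.

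**Figure D2:**
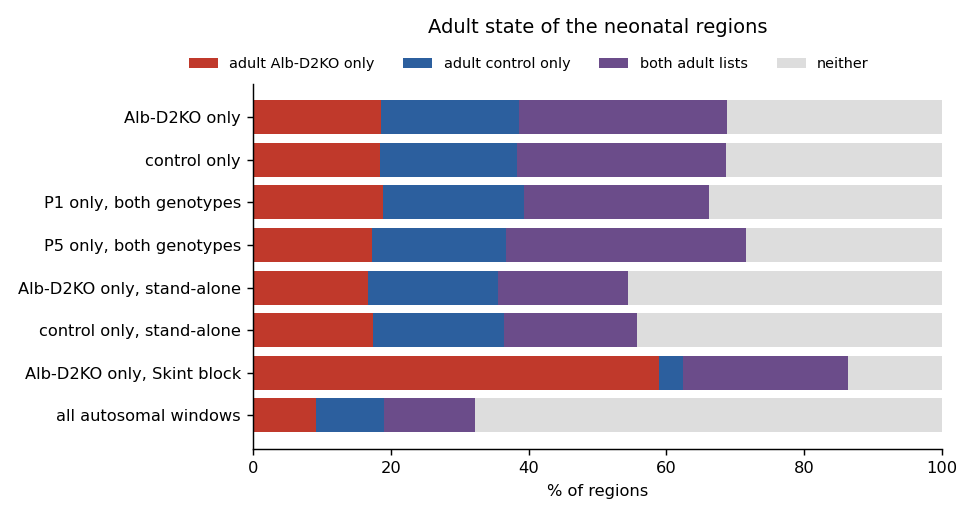
Share of regions (horizontal axis, in %) with an adult peak in Alb-D2KO only (red), control only (blue), both lists (purple) or neither (grey), for each neonatal set and subset (rows). The Alb-D2KO-only and control-only rows are near-identical, at 18.5% and 18.3% for adult Alb-D2KO alone, whereas the Skint block row reaches 58.9%.

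The comparison lists, in which the authors called Alb-D2KO peaks with the age-matched control H3K9me3 library as background, were used in the same way. For the adult they rest on the same libraries as the lists over input. A peak with −log10 p above 2 in the deposited adult comparison list touched 831 regions (1.88%, 1.75 to 2.01) and 738 of the mirror set (1.90%, 1.76 to 2.04), against 0.941% of the autosomal windows. The neonatal comparison lists rest on the libraries that defined the regions and are given as a description. They touched 2.56% of the regions at P1 and 2.35% at P5 at this limit, where 0.589% and 0.54% of the windows were touched.

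The distribution along the genome held the clearest departure from this even picture. The autosomes were divided into 24620 windows of 100 kb and ranked by their bases in Alb-D2KO-only regions. The first 12 windows all lay on chromosome 4 between 112000001 and 113600000, a stretch of 1.6 Mb called the Skint block here. Skint genes encode membrane proteins of the immunoglobulin superfamily, expressed chiefly in skin and thymus, and Skint1, the founder of the family, is needed for the selection of a class of γδ T cells of the epidermis. They form a single tandem cluster on chromosome 4. At least 10 kb of Alb-D2KO-only bases were found in 24 windows (0.0975% of all), 14 of them in the block, and at least 10 kb of control-only bases in 2 windows. The highest window held 36.7 kb, the highest outside the block 11.9 kb, and the highest for the mirror set 11.9 kb.

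**Figure D3:**
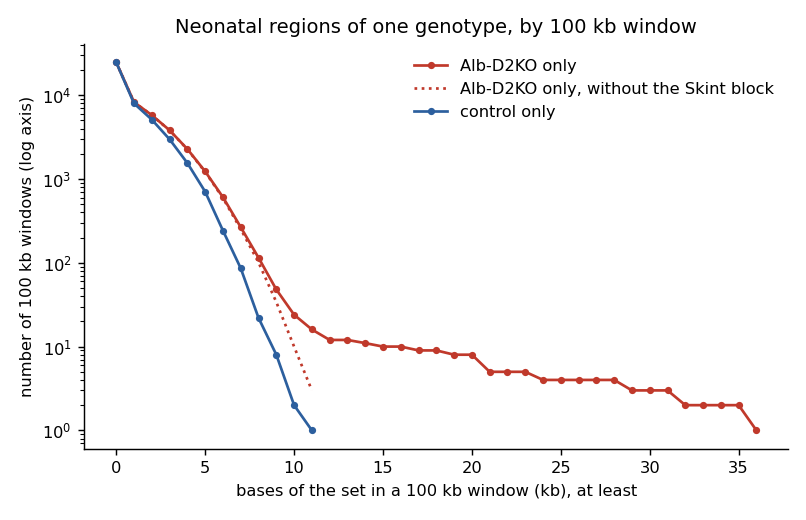
Number of 100 kb windows (vertical axis, logarithmic) that hold at least the given length of region bases (horizontal axis, kb), for Alb-D2KO-only regions (red, solid), the same without the Skint block (red, dotted) and control-only regions (blue). In steps of whole kb, the solid red line runs on to 36 kb, while the dotted and blue lines both end at 11 kb.

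The block's 16 windows ranged from 3.72 kb to 36.7 kb, so that 4 of them lay below the highest window elsewhere. Outside the block 3 windows held at least 11 kb, and the window of these not named here lay in a near flank of the block. Away from the block and its near flanks, the leading window held 11.9 kb on chromosome 7 (53000001 to 53100000), with 2.94 kb of control-only bases. The next held 11.3 kb among the Ighv antibody genes of chromosome 12 (115800001 to 115900000), with 1.48 kb. Then came 10.7 kb in each of 2 adjoining windows with Tdpoz genes on chromosome 3, with 0.502 kb and 0 kb. A window on chromosome 4 (75400001 to 75500000) held 10.4 kb, with 1.61 kb. In the chromosome 7 window the adult lists covered 34.97 kb (Alb-D2KO) against 25.9 kb (control), the direction of the block. In the others they covered 22.95 kb against 22.7 kb (Ighv), 33.8 kb against 34.2 kb and 42.97 kb against 43.8 kb (Tdpoz) and 50.6 kb against 51.5 kb (chromosome 4). The Tdpoz windows kept their neonatal direction with −log10 p above 2 required, with 56.2 kb against 0.612 kb and 75.8 kb against 10.3 kb at P1 and 50.02 kb against 0 kb and 53.7 kb against 14.4 kb at P5. In the leading window of the block (112400001 to 112500000, at Skint9), all listed adult peaks covered 64.5 kb against 5.41 kb. With −log10 p above 2 required, this window had 1.33 kb against 0.252 kb at P1. At that limit it had 0.744 kb against 0 kb at P5 and 12.7 kb against 0.321 kb in the adult. The window with the most control-only bases, on chromosome 17 (69600001 to 69700000), also held 5.59 kb of Alb-D2KO-only bases, whereas the 4 leading windows of the block, like the second Tdpoz window, held no control-only base.

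The Skint block held 314 Alb-D2KO-only regions and 8 control-only regions, with 311 kb and 5.10 kb. It made up 0.0650% of the autosomal bases and 1.09% of the Alb-D2KO-only bases. Regions particular to P1 or to P5 numbered 30 and 42 there. Of the 10 longest regions 6 lay in the block, and a seventh (113864272 to 113867438) lay in Skint5 beyond its end. Of the 151 regions of 2000 bp or more, 25 were in the block. Regions of the block lay mainly in introns (180) and between genes (113), and 21 touched an exon.

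Coverage by all listed peaks was higher in Alb-D2KO over most of the block. The share of the block under peaks was 65.0% (Alb-D2KO) against 39.2% (control) at P1, 78.2% against 31.3% at P5 and 54.97% against 18.6% in adult liver. In bins of 50 kb, coverage was higher in Alb-D2KO in 32 of 32 bins at P1, 32 of 32 at P5 and 30 of 32 in the adult. The block was chosen for its Alb-D2KO-only bases at P1 and P5, so its neonatal values are a description. Only the adult values were free of that choice. Near the middle the genotypes lay close together. The window from 112600001 had 81.5 kb against 73.98 kb at P1 and 38.5 kb against 38.7 kb in the adult, and the next one 85.4 kb against 80.6 kb and 44.2 kb against 37.8 kb. In the 1 Mb before the block the shares were 15.8% against 13.5% at P1, 18.3% against 13.3% at P5 and 25.5% against 22.1% in adult liver. In the 1 Mb after it they were 61.3% against 53.8%, 62.6% against 48.8% and 44.8% against 38.2%. The flanks thus differed in the same direction as the block and by less, and coverage did not drop at the end of the block.

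**Figure D4:**
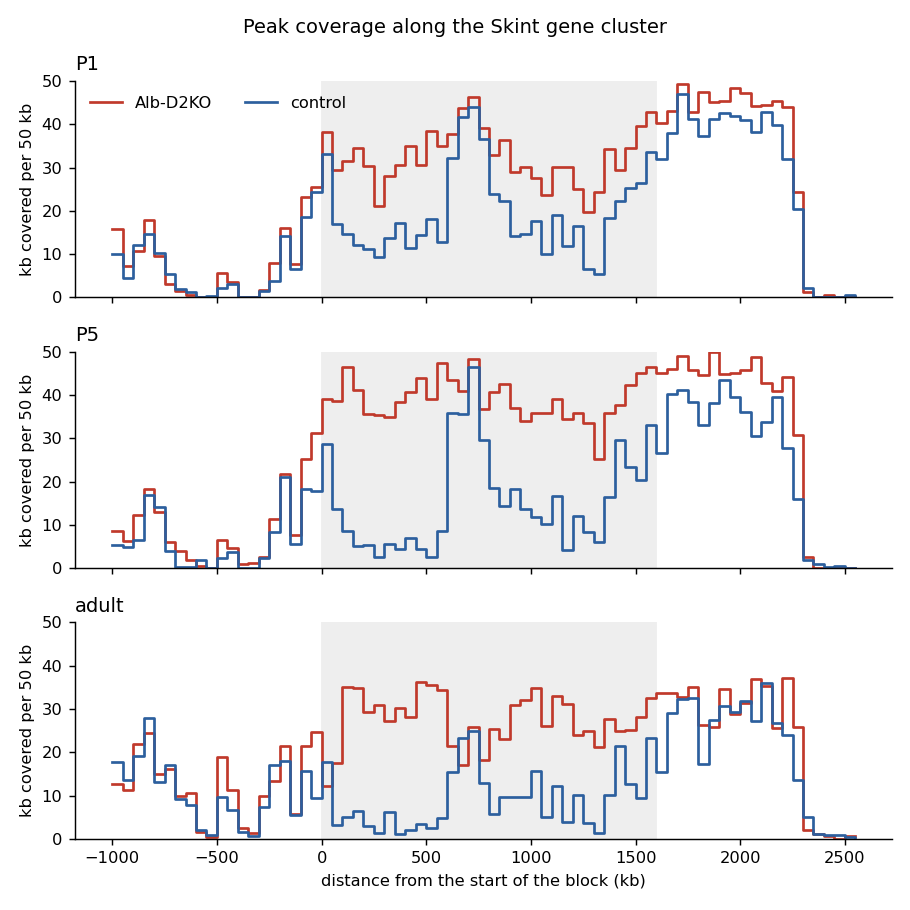
Length covered by listed peaks in bins of 50 kb (vertical axis, kb) against the distance from the start of the Skint block (horizontal axis, kb) for Alb-D2KO (red) and control (blue) at P1, P5 and adult. The red line is above the blue line in 32 of 32 bins of the shaded block at P1 and P5 and in 30 of 32 in the adult, and the neonatal lines come close near the middle of the block. The P1 and P5 lists were used to choose the block, and the adult lists were not.

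The peaks in the block were many and weak. At P5 the block held 258 Alb-D2KO peaks with a median width of 2958 bp and 290 control peaks with a median width of 902 bp. At P1 the peaks numbered 367 and 373, with median widths of 1824 bp and 971 bp, so that width and not number differed. In the adult there were 402 and 276 peaks with widths of 1298 bp and 735 bp. The highest −log10 p in the block was 2.77 (Alb-D2KO) against 5.07 (control) at P1 and 2.55 against 3.49 at P5. No Alb-D2KO peak of the block had a q-value below 0.05 at P1 or P5. With −log10 p above 2 required, the neonatal difference was no longer in 1 direction, with 150 kb (Alb-D2KO) against 84.5 kb (control) at P1 but 91.5 kb against 113 kb at P5. For adult liver the lengths were 216 kb against 39.6 kb.

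The adult libraries, which the rule did not use, showed the block in the same direction as the neonatal ones. Of its 314 regions, 185 (58.9%, 53.3 to 64.4) touched a peak in the adult Alb-D2KO list alone, 11 (3.50%, 1.76 to 6.18) in the adult control list alone, 75 in both and 43 in neither. Alb-D2KO thus held 94.4% (90.2 to 97.2) of those with a peak in a single adult list, against 47.5% (46.7 to 48.2) for the 43952 regions outside the block. The block's regions came from 220 P1 and 165 P5 source peaks, and 56.4% of these P5 peaks held a single region. They lay in 1 stretch of the genome and are not independent. The block's intervals count each region as separate and so understate the uncertainty. Adult peaks covered 64.7% of the block's region bases in Alb-D2KO and 10.6% in control. In the deposited adult comparison list, 44 of the 314 regions (14.01%, 10.4 to 18.4) touched a peak with −log10 p above 2, and 787 of the 43952 regions elsewhere (1.79%, 1.67 to 1.92).

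The block was not the place of the greatest adult difference. Ranked by adult Alb-D2KO minus control coverage, the 60 highest windows comprised 33 at the Vmn1r pheromone receptor genes of chromosome 7, 11 of the block and 16 elsewhere. The first of the block ranked 27, at 62.5 kb. The 36 windows that span this chromosome 7 stretch held 2775 kb (Alb-D2KO) against 473 kb (control) of adult peaks. They held 15 Alb-D2KO-only and 50 control-only neonatal regions, where chromosome 7 as a whole had 14.84 and 14.02 per Mb. The Alb-D2KO-only number was thus low for this chromosome, and the control-only number was not. In the 26 windows ranked above the block, Alb-D2KO minus control coverage was negative at P5, from −34.44 kb to −5.189 kb. At P1 it went both ways, from −7.665 kb to 6.03 kb. The adult direction in these windows was thus the reverse of that at P5.

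The gene cluster reaches past both ends of the block. Within it the genes differed in how far the genotypes lay apart. Skint4 (chromosome 4, 112072016 to 112168076, plus strand) held 23 regions and no control-only region. Its gene body was covered over 64.1% (Alb-D2KO) against 27.1% (control) at P1, 87.6% against 17.4% at P5 and 61.7% against 10.2% in adult liver. The longest region of all, 4760 bp from 112120030 to 112124789, lay in Skint4 and across the pseudogene Gm12820, and its central sequence is the fifth of those printed above. Its source peaks had a −log10 p of 1.73 at P1 and 1.78 at P5, and 1351 of its bases were covered in the adult Alb-D2KO list and 0 in the adult control list.

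Skint3 (112232245 to 112300468) and Skint9 (112385969 to 112433985) held 17 regions each and no control-only region. Skint3 was covered over 43.7% (Alb-D2KO) against 18.02% (control) at P1, 70.4% against 6.74% at P5 and 56.8% against 2.89% in adult liver. Skint9 was covered over 69.2% against 27.04% at P1, 85.1% against 14.9% at P5 and 66.5% against 3.77% in adult liver. In both genes the control values fell from P1 to P5 to adult while Alb-D2KO was highest at P5. Skint9, Skint4 and Skint3 were also the first 3 of all protein-coding genes of 10 kb or more by the share of the gene body in Alb-D2KO-only regions, at 35.2%, 30.8% and 26.3%. The next was Serpinb9g, a granzyme-inhibitor type serpin on chromosome 13, at 24.4%.

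Skint6 (112804616 to 113286973, minus strand) held the most region bases of any gene, with 100 regions and 89.5 kb against 1 control-only region of 0.655 kb. It was covered over 57.7% (Alb-D2KO) against 32.01% (control) at P1, 73.6% against 26.1% at P5 and 56.9% against 17.4% in adult liver. Of its 100 regions, 53 touched a peak in the adult Alb-D2KO list alone and 4 in the adult control list alone. Skint2 (112557194 to 112652248) held 17 regions and was covered over 71.4% against 47.2% at P1, 88.6% against 48.5% at P5 and 55.3% against 21.8% in adult liver.

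At Skint1, Skint10 and Skint5 the genotypes lay closer together. Skint1 (112006269 to 112029538) held 1 region, and its coverage was 75.4% (Alb-D2KO) against 77.3% (control) at P1, 81.0% against 72.6% at P5 and 18.3% against 23.4% in adult liver. Skint10 was covered over 92.9% against 84.5% at P1, 90.6% against 83.4% at P5 and 53.2% against 48.5% in adult liver, with 2 regions. Skint5, with 48 regions, was covered over 88.2% against 75.98% at P1, 92.2% against 70.4% at P5 and 61.5% against 48.5% in adult liver. Skint7, Skint8 and Skint11 held 1, 3 and 8 regions. Skint7 was covered over 71.4% against 65.7% at P1, 69.9% against 38.1% at P5 and 25.4% against 21.2% in adult liver. Skint8 was covered over 63.6% against 44.9%, 71.9% against 47.3% and 52.2% against 38.0%, and Skint11 over 89.4% against 69.7%, 81.8% against 64.1% and 61.7% against 48.2%. In all, 11 of 11 Skint genes held an Alb-D2KO-only region and 7 of 11 a control-only region, with 227 kb and 4.88 kb. Over all protein-coding autosomal genes the shares with such a region were 10.2% and 9.99%. These shares do not allow for gene length, and a longer gene has more room for a region. By bases, Alb-D2KO-only and control-only regions made up 14.89% and 0.32% of the Skint genes, against 0.6308% and 0.5405% of all protein-coding genes.

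**Figure D5:**
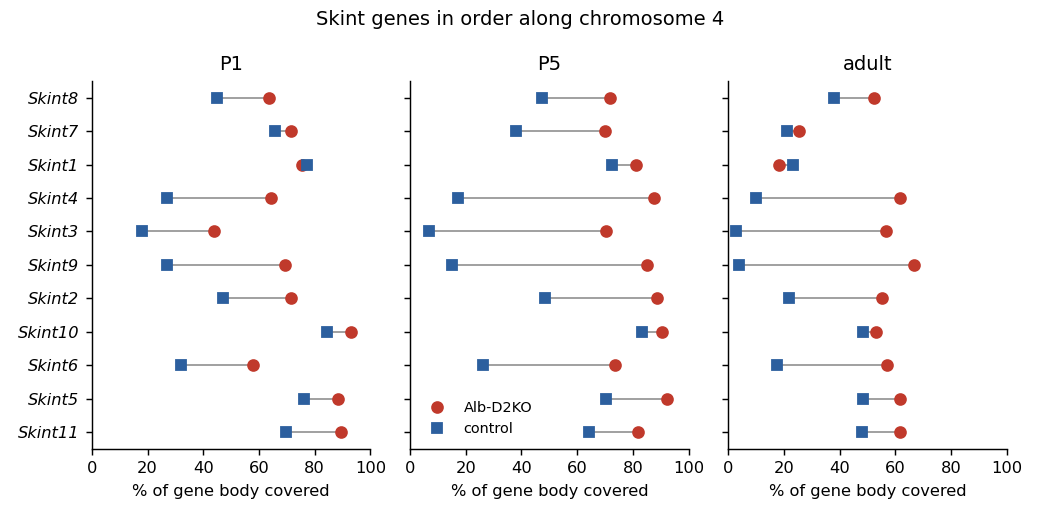
Share of each Skint gene body covered by listed peaks (horizontal axis, in %) in Alb-D2KO (red circles) and control (blue squares) at P1, P5 and adult, with genes in order along chromosome 4. Skint4, Skint3, Skint9 and Skint6 show the widest gaps at P5 and in the adult, such as 85.1% against 14.9% for Skint9 at P5, while at Skint1 the order of the genotypes differs between ages.

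The block's regions were richer in masked repeats than the regions as a whole. Masked repeats made up 60.7% of the block's region bases, against 45.1% of all region bases. The share of 50-base words with another copy in the genome was 19.7% in the block and 18.1% over all regions, but such words were spread over more of the block's regions. No word with another copy was found in 38.5% of the block's regions and in 61.7% of all. The block's regions were longer, with a median of 800 bp against 572 bp, and so held more words each. These shares do not allow for that length. When regions with 10% or more such words were left out, 163 of 314 Alb-D2KO-only and 4 of 8 control-only regions remained in the block, and 29923 of 44266 over all autosomes. Beyond that, the part of repeats in the result was not tested.

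Genes outside the cluster were counted in both sets. A region lay in the body of 3713 of 51229 autosomal genes (7.25%), and a control-only region in 3681 (7.19%). After Skint6, the genes with the most region bases were very long genes, many of them known from the nervous system, in which control-only regions were also plentiful. Lrp1b, a giant lipoprotein receptor gene, held 124 regions with 77.5 kb and 101 control-only regions with 64.9 kb. Ptprd, a receptor phosphatase gene, held 107 with 73.9 kb and 105 with 66.5 kb. In Cntnap2, for a neurexin-related adhesion protein, Csmd1 and Lsamp the control-only regions were the more numerous, at 116 against 107, 84 against 70 and 90 against 88. Control coverage at P1 of the genes ranked 2 to 15 stayed close to that of Alb-D2KO, such as 62.8% against 64.9% in Lrp1b, where Skint6 had 32.01% against 57.7%.

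Gene families that form clusters held regions of both sets. Of 1128 Olfr odorant receptor genes, 245 held an Alb-D2KO-only and 223 a control-only region. Of 388 Zfp zinc finger genes these were 61 and 55, and of 208 Vmn1r genes 41 and 39. Families with genes active in liver differed among themselves, beside shares of 10.2% and 9.99% over all protein-coding genes. Among 102 genes with a symbol starting in Cyp, mostly cytochrome P450 enzymes, 32 held an Alb-D2KO-only and 29 a control-only region, with 44.7 kb and 34.7 kb. Cyp2c29, a P450 gene of chromosome 19, held 7 and 1, Cyp2c65 5 and 0, and Cyp3a25 2 and 4. Among 22 Ugt glucuronosyltransferase genes the numbers were 12 and 7, with 11.9 kb and 5.02 kb. Among 22 Mup major urinary protein genes they were 8 and 4, with 7.84 kb and 4.37 kb. In 34 Scgb secretoglobin genes the order was turned, with 4 and 8 genes, as it was among 11 Prame genes, with 1 and 4. Vmn2r pheromone receptor genes held 60 and 50 of 119, Kcn potassium channel genes 20 and 19 of 92, Grm glutamate receptor genes 5 and 5 of 8, Serpina genes 1 and 1 of 23 and Tdpoz genes 2 and 0 of 5. The receptor, Zfp, Cyp, Ugt, Mup and Tdpoz families hold near-identical genes, and the values of single members are uncertain where reads of a copy could be placed at another. The 2 adjoining windows of 100 kb with Tdpoz genes on chromosome 3 held 22 Alb-D2KO-only regions and 1 control-only region, with 21.4 kb and 0.502 kb. On chromosome 12 from 17 to 22 Mb the order was turned, with 105 and 140 regions. The authors reported islands of H3K9me3 enrichment in Alb-D2KO at P1 and P5 inside this stretch. The count covers the whole stretch and does not describe those smaller islands.

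Genes of thyroid hormone action and of the H3K9 machinery were counted from lists. Of 24 autosomal genes listed for thyroid hormone transport, deiodination, receptors, cofactors and targets, 3 (12.5%) held an Alb-D2KO-only and 2 a control-only region, near the 10.2% and 9.99% of all protein-coding genes. They were Thrb, the main thyroid hormone receptor gene of hepatocytes, with 0.758 kb against 0.708 kb of control-only sequence, the nuclear receptor coactivator gene Ncoa2 with 0.682 kb, and the organic anion transporter gene Slco1a1 with 0.486 kb against 0.873 kb. Dio2 held none. Of 23 genes for enzymes and partners of H3K9 and DNA methylation, Kdm4c, for an H3K9 demethylase, held 1 region of 0.405 kb, and Kdm3a, for another, had 1 within 5 kb of its start. Of 30 lipid metabolism genes only Cd36, for a fatty acid transporter, held any, with 4 regions and 2 control-only regions.

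Markers of cell types of newborn liver held few regions in either set. None of 8 hepatocyte, 6 fetal liver and 4 bile duct genes held a region of either set. Of 6 endothelial and stellate cell genes, Dcn, for the matrix protein decorin, held 1 region and 4 control-only regions. Peak lists of a silencing mark give no expression level, so these genes do not measure which cells the samples held, and they do not show whether Dio2 was deleted.

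In position and sequence the regions were close to the mirror set and differed from the genome at large. Of the regions, 70.6% (70.2 to 71.0) were intergenic, 25.8% intronic and 3.64% touched an exon, and 11.2% (10.9 to 11.5) lay within 5 kb of a gene start. In the mirror set these were 69.8%, 26.5%, 3.77% and 11.6%. Of the autosomal windows, 50.8% were intergenic and 18.2% lay within 5 kb of a start. GC content was 38.3% in the regions, 38.6% in the mirror set and 41.9% in the windows, with 5.56, 5.73 and 8.51 CpG per kb. Masked repeats made up 45.1%, 45.7% and 33.5% of the bases. In stand-alone regions the masked share was 34.55%, near that of the windows. The AGGTCA half-site, sought on both strands in the central 300 bases, was present in 13.8% (13.5 to 14.1) of the regions, 13.99% (13.7 to 14.3) of the mirror set and 16.3% of the windows. Direct repeats of this hexamer with any 4 bases between, each of which also counts as a half-site, were present in 1 region, 3 mirror regions and 480 of the windows (0.0115%).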

How the data were processed

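H3K9me3 was profiled in livers of control and Alb-D2KO mice at P1, P5 and adult, with groups taken from the sample labels. The authors aligned reads to mm10 with BWA in Partek Flow and called broad peaks with MACS2 at a p-value limit of 0.05. In 6 deposited lists the library was called over its input, and in 3 comparison lists Alb-D2KO was called over control of the same age. The deposited pileup is mean signal (coverage) in a scaling not stated, and was not compared between lists. The deposited −log10 p-value and q-value and the fold, a linear ratio over input, are the authors' averages over a peak. The lists hold no read counts, so depth is unknown. Merging of samples or runs before calling is not given in the sources used here, and each list was treated as 1 library.

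Regions were built from list intervals with Python 3.11.15, numpy 2.4.6 and pandas 2.3.3. Positions are 1-based and end 1 base before the listed end, since the transcripts listed beside the peaks (21605 matched to GENCODE M21) began at the annotated base in 100% of cases and ended 1 base late. Adult state means an overlap of at least 1 bp. The adult background was autosomal windows of 572 bp without unknown bases. Genes came from GENCODE M21, sequence and masked repeats from the RefSeq copy of GRCm38. Copies of 50-base words were counted on both strands of the assembled chromosomes. Shares have 95% exact (Clopper-Pearson) intervals (scipy 1.17.1). The functions were tested on simulated data. Named were the 10 longest regions, the 10 stand-alone regions with the highest smaller p, the 5 leading 100 kb windows, the 15 genes with most region bases and listed genes that held a region, of which the text gives examples. The block, other windows, the genes ranked by share and the examples from gene families were chosen after their values were seen. Members and lists were chosen with earlier results of these data known. Alternatives were other length, p and overlap limits, a margin of 1000 bp, merged peaks, stand-alone regions, few repeated words and single ages. Results for some genes are not reported here.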

Additional observations from a re-analysis of the deposited data

How the results depend on the processing

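No paired analysis was made, although each age had a library of both genotypes, and the results come from no test. The rule used the P1 and P5 libraries of both genotypes, which leaves 1 pair of adult libraries independent of it. The number of Alb-D2KO-only regions moved with the rule. It was 26656 at 500 bp or more, 4851 at 1000 bp or more, 331 with source peaks of −log10 p above 2, 3848 with no control peak within 1000 bp, 5425 for stand-alone regions, 185014 for P1 alone and 185943 for P5 alone. The ratio to the mirror set stayed above 1 in each of these, at 1.16, 1.27, 1.06, 1.11, 1.08, 1.04 and 1.03, and was 1.16 with all lists limited to an averaged p of 0.05 and 1.16 without regions rich in repeated words. Of regions in a single adult list, Alb-D2KO held 49.5% at 1000 bp or more, 51.5% with source peaks of −log10 p above 2, 49.3% with the margin and 46.96% for stand-alone regions, where the mirror set gave 47.99%, 48.2%, 48.2% and 47.9%, with overlapping intervals. The share touching the adult comparison list was 37.5% with all its peaks (mirror 37.3%), 0.0565% above a −log10 p of 3 (0.0565%) and 0.969% with at least 50% covered (0.974%). Stand-alone regions made up 8.80% at 1000 bp or more. Inside the Skint block, with alternatives chosen after seeing the data, the number was 113 at 1000 bp or more, 83 with the margin, 33 stand-alone, 163 without repeated words and 0 with source peaks of −log10 p above 2, against 0, 0, 0, 4 and 0 control-only regions. With P1 alone it was 424 against 172. At 1000 bp or more, Alb-D2KO held 97.4% of the block's regions in a single adult list. GC content was 38.41% at 1000 bp or more and 38.05% for stand-alone regions. The masked share was 45.19% at 1000 bp or more but 34.55% for stand-alone regions (mirror 34.98%), near the 33.48% of the autosomal windows. The share of repeated words was 10.23% in stand-alone regions, against 10.49% in a sample of the windows. Depth is unknown, and above a −log10 p of 2 no region of the block is left to describe.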
